A study of Mus musculus with 9 samples.

Results

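The open chromatin of mouse dendritic cells that carried a hairpin vector against Pcgf6, named HP109, was set against that of dendritic cells with mi8, the control vector of the Pcgf6 overexpression arm. These are the longest and most nearly equal of the study's 4 peak lists, with 170077 and 170946 peaks on chromosomes 1 to 19 and X. A peak was taken as exclusive when it shared no base pair with any peak of the other list. By this rule 22005 HP109 peaks and 27021 mi8 peaks were exclusive, 49026 of the 341023 peaks in both lists and of the 593227 in all 4 lists.

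The assay was ATAC-seq. Its transposase cuts DNA that is not wrapped in nucleosomes and tags it for sequencing. All cells were grown from the marrow of C57Bl/6 mice for 9 days in 20 ng/mL GM-CSF. They received retrovirus on day 2 and were sorted for CD11c together with the human CD8 reporter that the vectors carry. The remaining groups were LMP8, the control vector of HP109, and OE, which overexpresses Pcgf6, and each of the 4 vectors had 2 libraries behind 1 deposited list. A single hairpin vector stood for the knockdown. HP109 and mi8 therefore differ both in the hairpin and in the control backbone, and the 2 differences cannot be told apart in this comparison. LMP8 was used to show which exclusive regions also separate HP109 from its own control. With 1 list per vector there is no spread between samples, so no test between conditions was made. Intervals beside shares are exact (Clopper-Pearson) 95% intervals and cover counting error only.

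Pcgf6 is the subunit that defines PRC1.6, a Polycomb complex that places a ubiquitin mark on histone H2A. The complex reaches DNA through factors such as E2f6 and the Mga and Max pair, and in many cell types it keeps meiotic and germline genes silent. Dendritic cells take up antigen, and on sensing microbes or interferon they open and transcribe genes for antigen presentation, chemokines and antiviral defence.

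Most markers of the labelled cell type had a gene-end peak in both lists. Of 10 dendritic cell markers, HP109 had a peak within 1000 bp of a gene end at 9 and mi8 at 10, the exception in HP109 being Ccr7, a chemokine receptor with which mature dendritic cells migrate to lymph nodes. LMP8 and OE had such a peak at 9 each, and Ccr7 was the exception there too. The end peak of Ccr7 in mi8 had a −log10 q of 4.76. Such peaks were common in general, at 14078 of 21631 protein-coding genes in HP109 and 14179 in mi8. These counts alone therefore do not identify cell types. Many markers of other cells had an end peak as well. Among 18 macrophage markers 17 had an end peak in each list. Of 20 granulocyte and mast cell markers, 12 had one in HP109 and 11 in mi8, of 18 lymphoid and plasmacytoid markers 12 and 11, of 14 erythroid and megakaryocyte markers 10 and 9, and of 12 stroma markers 6 and 7. Whether fewer cells of a type or less open DNA per cell lies behind a missing peak cannot be told apart in bulk libraries.

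Depth was not balanced although list length was. The whole-number read pileup at each summit could be recovered from the deposited fold and p-value, and the genome-wide background came to 1.35 reads in HP109, 1.95 in mi8, 1.42 in LMP8 and 2.00 in OE. By the steps in those backgrounds mi8 had 1.38 times the depth of HP109, and LMP8 1.01 times. The 2 lists covered 51.2 Mb in HP109 and 55.9 Mb in mi8, with median widths of 219 and 236 bp.

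The list with the largest imbalance was that of interferon-stimulated genes, and the promoters shown here were chosen because later results refer to them. Each line gives the 250 bases before a RefSeq start site on build GRCm38.p6, 5′ to 3′ on the strand of the gene. Capitals mark matches to any of 6 short motifs searched on both strands. The first 4 promoters had a peak in mi8 and none in HP109. Ifi44 is an interferon-induced gene, Ifi214 belongs to the interferon-inducible PYHIN family, Ifna1 encodes an interferon alpha, and Apol9a is an apolipoprotein L gene.
Ifi44 (chr3:151749911-151750160, minus strand): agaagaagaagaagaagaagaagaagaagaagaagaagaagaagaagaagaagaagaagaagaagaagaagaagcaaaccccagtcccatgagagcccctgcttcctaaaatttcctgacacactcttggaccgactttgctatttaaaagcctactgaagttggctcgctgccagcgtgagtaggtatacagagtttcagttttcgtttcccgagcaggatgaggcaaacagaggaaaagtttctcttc
Ifi214 (chr1:173535958-173536207, minus strand): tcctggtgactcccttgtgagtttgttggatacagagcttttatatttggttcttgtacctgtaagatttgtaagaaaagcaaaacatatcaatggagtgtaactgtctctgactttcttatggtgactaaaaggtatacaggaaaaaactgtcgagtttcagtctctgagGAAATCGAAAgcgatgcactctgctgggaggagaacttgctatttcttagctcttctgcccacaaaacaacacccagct
Ifna1 (chr4:88849837-88850086, plus strand): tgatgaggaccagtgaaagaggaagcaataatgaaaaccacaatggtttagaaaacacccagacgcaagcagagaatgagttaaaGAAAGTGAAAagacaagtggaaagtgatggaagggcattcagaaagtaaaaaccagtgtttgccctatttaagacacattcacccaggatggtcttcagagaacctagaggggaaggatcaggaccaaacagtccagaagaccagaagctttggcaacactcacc
Apol9a (chr15:77411035-77411284, minus strand): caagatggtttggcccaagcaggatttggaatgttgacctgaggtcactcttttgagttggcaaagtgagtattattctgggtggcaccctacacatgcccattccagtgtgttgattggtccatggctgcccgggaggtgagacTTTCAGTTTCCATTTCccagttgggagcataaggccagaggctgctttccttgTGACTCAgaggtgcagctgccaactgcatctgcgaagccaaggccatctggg
The next 3 had a peak in HP109 and none in mi8. Retnla encodes a small secreted protein of alternatively activated macrophages, Elane encodes neutrophil elastase, and Cd5l encodes a secreted protein of tissue macrophages.
Retnla (chr16:48842359-48842608, plus strand): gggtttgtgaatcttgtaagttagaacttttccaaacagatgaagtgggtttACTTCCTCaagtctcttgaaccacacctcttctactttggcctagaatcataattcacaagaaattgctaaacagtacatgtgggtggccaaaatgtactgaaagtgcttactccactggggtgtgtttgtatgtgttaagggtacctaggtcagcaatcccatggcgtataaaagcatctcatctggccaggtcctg
Elane (chr10:79886062-79886311, plus strand): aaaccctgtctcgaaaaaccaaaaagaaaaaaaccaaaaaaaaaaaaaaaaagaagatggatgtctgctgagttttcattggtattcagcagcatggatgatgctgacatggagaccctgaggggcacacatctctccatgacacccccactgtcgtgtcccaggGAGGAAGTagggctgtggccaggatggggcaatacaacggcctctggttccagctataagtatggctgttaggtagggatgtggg
Cd5l (chr3:87357631-87357880, plus strand): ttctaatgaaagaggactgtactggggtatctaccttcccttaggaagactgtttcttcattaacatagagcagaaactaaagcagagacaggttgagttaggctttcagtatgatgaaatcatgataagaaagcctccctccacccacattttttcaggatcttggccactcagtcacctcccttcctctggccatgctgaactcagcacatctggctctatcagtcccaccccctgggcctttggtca
The capitals in Ifi214 and Ifna1 are the interferon motif, GAAA followed by any 2 bases and GAAA again. In Apol9a they are a pair of overlapping matches to that motif on the opposite strand and then an AP-1 motif (TGANTCA). In Elane they are the PU.1 motif GAGGAAGT, and in Retnla the same motif on the opposite strand. Ifi44 and Cd5l held no exact match to the 6 motifs in this window. Near matches were not searched, so a variant of a motif would be missed.

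Interferon-stimulated genes were open at more places in mi8 than in HP109. For each gene list, HP109 and mi8 peaks within 10 kb of the genes were merged into regions, and regions in 1 list alone were counted. Near the 32 interferon-stimulated genes 70 of 271 regions were in mi8 alone (25.8%, interval 20.7 to 31.5) and 7 in HP109 alone (2.58%, interval 1.04 to 5.25). Near all 21631 protein-coding genes the shares were 13.7% for mi8 alone and 11.8% for HP109 alone, of 140045 regions. At 26 of the 32 genes more regions were in mi8 alone, at 2 more were in HP109 alone (Dhx58 and Stat2), and at 26 no region was in HP109 alone. Of the 19 gene lists examined with all peaks, this one had both the lowest share in HP109 alone and the highest in mi8 alone, the next being 6.48% and 20.5%. With each list limited to the same number of its strongest peaks, its share in HP109 alone was again the lowest, and its share in mi8 alone (20.5%) came after that of granulocyte and mast cell markers (21.5%). Neighbours such as Ifi44 and Ifi44l share some regions, which were counted once in the list.

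**Figure D1:**
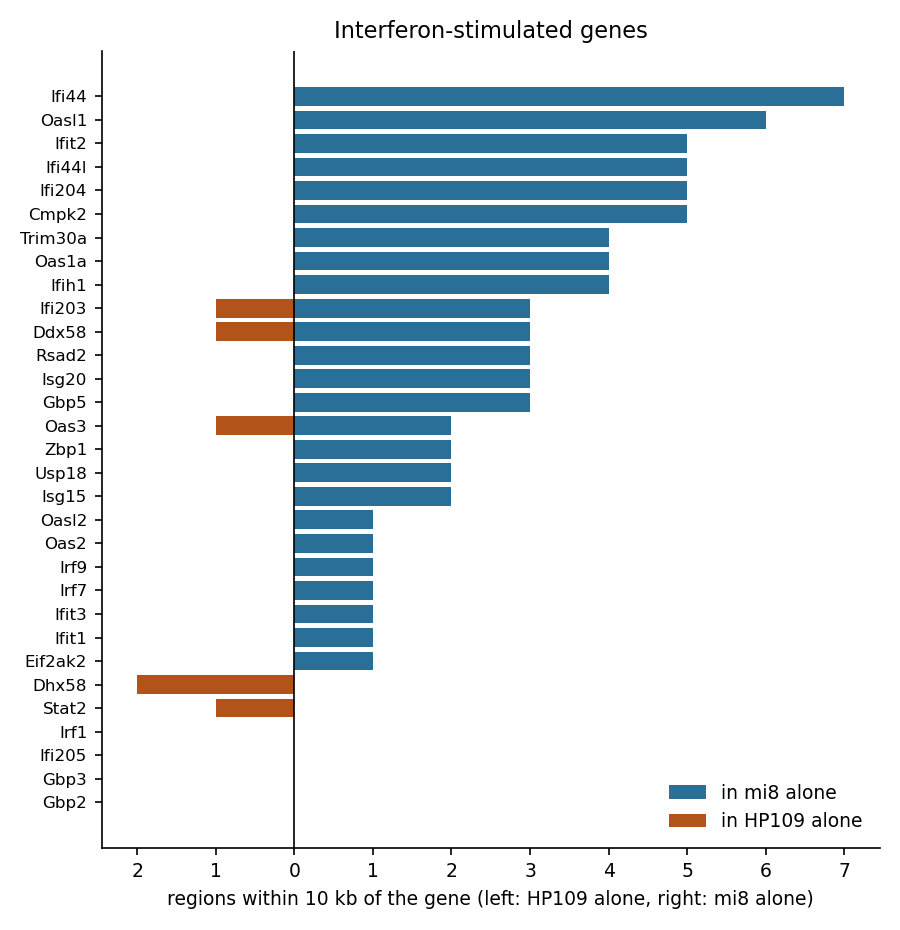
Regions within 10 kb of each of 31 interferon-stimulated genes that were in mi8 alone (bars to the right) or in HP109 alone (bars to the left), as counts of regions. Ifi44 has 7 regions in mi8 alone and none in HP109 alone; Dhx58 has 2 in HP109 alone.

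Ifi44 was the strongest case at a single gene. Its −log10 q at the gene end, which states how far a summit rises above background, was 33.3 in mi8 and 11.4 in LMP8, and HP109 and OE had no end peak. That mi8 peak (chr3:151748566-151749052) had a pileup of 38 reads over a background of 1.95 and was the strongest of all mi8 peaks absent from HP109. A second one over the promoter printed above (chr3:151749845-151750134) had a −log10 q of 24.6 and another, farther inside the gene (chr3:151739675-151739922), one of 23.3. Inside the gene 6 peaks were called in mi8, 6 in LMP8, 1 in HP109 and 1 in OE. Both control vectors thus held the peaks, and HP109 and OE held 1 each.

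The other antiviral genes had a gene-end peak in all 4 lists and differed in the regions around it. Oasl1, an oligoadenylate synthetase-like protein, had 6 regions in mi8 alone and none in HP109 alone, and its body held 1 peak in HP109, 6 in mi8, 1 in LMP8 and none in OE. Ifit2, which binds viral RNA, Cmpk2, an interferon-induced nucleotide kinase, Ifi204, a DNA sensor, and Ifi44l each had 5 in mi8 alone and none in HP109 alone. The end peak of Ifi44l had a −log10 q of 7.62 in HP109, 28.3 in mi8, 17.0 in LMP8 and 4.35 in OE. For Oasl2 the values were 12.7, 40.5, 26.3 and 4.74, for the viperin gene Rsad2 28.7, 71.4, 23.3 and 17.5, and for Ddx58, which encodes the RNA sensor RIG-I, 12.98, 34.2, 11.7 and 5.87. These genes were picked from both directions of difference in the end value. It was higher in mi8 than in HP109 at 18 of the 32 interferon-stimulated genes and not at the rest. Ifih1 had 136.8 in HP109 and 126.4 in mi8, and Usp18 112.0 and 94.4. A −log10 q grows with depth, so these values describe each list and differences between lists were not tested. Gbp2, Gbp3, Irf1 and Ifi205 had no region in 1 list alone.

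The imbalance at this list was also present against the knockdown's own control once length was equal. When each list was limited to its 111488 strongest peaks, the length of the shortest list, 39 of 190 regions near interferon-stimulated genes were in mi8 alone and 5 in HP109 alone, against 11.1% and 10.5% of regions near all genes. In the same setting 36 of 191 regions were in LMP8 alone and 8 in HP109 alone, against 11.5% and 12.1% near all genes. Between the control vectors, 23 of 202 (11.4%) were in mi8 alone and 17 (8.42%) in LMP8 alone, against 11.5% and 10.1% near all genes. With all peaks, where the LMP8 list is the shorter, 37 of 242 (15.3%) were in LMP8 alone and 23 (9.50%) in HP109 alone, against 6.36% and 22.9% near all genes. These pairs share lists and are given side by side. Of the 70 regions in mi8 alone, 26 (37.1%) were present in LMP8 and 3 (4.29%) in OE, beside 23.0% and 8.84% of such regions near all genes. In OE, limited to the same length, 46 of 199 regions (23.1%) were found with mi8 only and 13 (6.53%) with OE only, against 16.02% and 13.1% near all genes.

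Motifs were also counted in the promoters open in 1 list alone. RefSeq promoters, here the 250 bases before and 50 after a start site, matched 17274 of the genes with 21045 promoters. A peak lay on 142 of them in HP109 alone (0.675%) and on 259 in mi8 alone (1.23%), on 11941 in both and on 8572 in neither. The interferon motif was in 15 of the 259 (5.79%, interval 3.28 to 9.37), at 13 different genes, and in 1 of the 142 (0.704%, interval 0.0178 to 3.86), beside 3.38% of all promoters. The 13 genes were led by Adgrg7 (−log10 q 10.3), Zbtb18 (8.41), a transcriptional repressor, and Ccm2 (7.76). They also included Ifi214 (6.88), whose promoter had a peak in OE too, Ifna1 (5.24), Apol9a (4.61) and Ifna4 (2.64). The PU.1 motif, read by a lineage factor of myeloid cells, was in 8 of the 142 (5.63%, interval 2.46 to 10.8) and in 3 of the 259 (1.16%, interval 0.240 to 3.35), beside 3.15% of all promoters. The 8 were led by Retnla (11.9), Eng, a co-receptor for TGF-beta ligands (9.68), and Phf11c (8.64), and included Elane (5.47) and F13a1 (4.27), the gene of coagulation factor XIII subunit A. All 4 of these intervals include the share of all promoters. A match describes letters in a window and does not mark a bound site. Interferon alpha, PYHIN and guanylate-binding genes have close copies, and the sources used here do not say how reads that fit several copies were handled.

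Motifs of the DNA-binding subunits of PRC1.6 had shares in both sets of exclusive promoters whose intervals include the share in all promoters. The E-box CACGTG, which the Mga and Max pair binds, was in 6.34% of the HP109-only and 6.18% of the mi8-only promoters, and the E2F motif GCGGGA in 28.9% and 24.7%, beside 7.91% and 26.0% of all promoters. Promoters open in both lists held them in 10.4% and 37.3%, and those open in neither in 4.50% and 10.3%. The 10.4% lies above the mi8-only interval (3.57 to 9.84) and inside the HP109-only one (2.94 to 11.7). The 37.3% lies above both, 19.6 to 30.4 for mi8 alone and 21.6 to 37.1 for HP109 alone. AP-1 motifs were in 7.04% of the HP109-only promoters (interval 3.43 to 12.6). They were in 29 of the 259 mi8-only promoters, at 26 genes (11.2%, interval 7.63 to 15.7). The share of all promoters, 7.04%, lies below the second interval. AP-1 motifs were in 4.93% of promoters open in both lists and in 9.88% of those open in neither. The latter share lies inside the second interval. NF-kB motifs (GGGA, any 2 bases, TTCC) were in 0.704% of the HP109-only and 1.16% of the mi8-only promoters, beside 1.46% of all promoters. Exclusive promoters were less rich in CpG than shared ones. The median ratio of observed to expected CpG was 0.413 for HP109 alone, 0.524 for mi8 alone, 0.775 for both and 0.222 for neither.

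At Pcgf6 itself no peak inside the gene was exclusive, with 4 peaks in HP109, 4 in mi8, 4 in LMP8 and 2 in OE. A hairpin acts on the transcript, so these peaks do not check the knockdown. All 24 genes of PRC1.6 and the Pcgf paralogs had an end peak in each of the 4 lists. Near them 20 of 208 regions (9.62%) were in HP109 alone and 26 (12.5%) in mi8 alone, a direction that turned at equal length, with 13 and 10 of 138, and with a −log10 q of 10 or more, with 15 and 10 of 132. Ehmt1, a histone H3 lysine 9 methyltransferase of the complex, had 3 in HP109 alone and 1 in mi8 alone, and Tfdp1, a partner of E2f factors, had 1 and 3.

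Germline genes, the best known targets of PRC1.6, were mostly closed at their ends in both lists. Of 24, 8 had an end peak in HP109 and mi8 alike and 15 in neither. The remaining gene, Mov10l1, an RNA helicase that makes piRNAs, had an end peak in HP109 (−log10 q 8.64) and in LMP8 (3.63) and none in mi8 or OE. Near the 24 genes 18 of 112 regions (16.1%, interval 9.81 to 24.2) were in HP109 alone and 14 (12.5%, interval 7.01 to 20.1) in mi8 alone. Both intervals include the shares near all genes. Ddx4, a germ cell RNA helicase, had 4 in HP109 alone and 1 in mi8 alone, and Stag3, a cohesin subunit of meiosis, had 3 and none. Sycp1, Sycp3, Rpl10l and Taf7l had no region in either list. Near 27 developmental Polycomb targets 20 of 122 regions (16.4%) were in HP109 alone and 25 (20.5%) in mi8 alone, a direction that turned at equal length, with 13 and 6 of 50, and among peaks with a −log10 q of 10 or more, with 14 and 5 of 46. At equal length HP109 and its own control LMP8 had 9 and 9 of 51 regions alone near these targets. LMP8 and mi8 had 11 and 5 of 47, and OE and mi8 22 and 9 of 59. With all peaks Foxa1 had 4 in HP109 alone and 3 in mi8 alone and Pax6 2 and 4, both developmental transcription factors.

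With all peaks, macrophage markers and matrix genes were the lists with the highest shares of regions in HP109 alone. At equal length their shares were 14.2% and 13.7%, and developmental Polycomb targets (26%) and erythroid and megakaryocyte markers (15%) had higher ones. Near the 18 macrophage markers 74 of 366 regions (20.2%, interval 16.2 to 24.7) were in HP109 alone and 46 (12.6%, interval 9.35 to 16.4) in mi8 alone. A pair of genes held most of them. Cd36, a scavenger receptor, had 25 in HP109 alone and 6 in mi8 alone, and Mrc1, the mannose receptor, 18 and 6. Itgam, which encodes CD11b, had 6 and 2, Lyz2, which encodes lysozyme, 6 and 1, and the scavenger receptor gene Msr1 went the other way with 4 and 9. The body of Mrc1 held 35 peaks in HP109, 25 in mi8, 32 in LMP8 and 14 in OE, so LMP8 was nearer to HP109 in number. Of the 14 HP109 peaks inside Mrc1 that were absent from mi8, 4 were in LMP8. Without Cd36 the list had 49 and 40 of 275 regions. Over single genes, 5 had more regions in HP109 alone and 7 more in mi8 alone.

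Near 26 matrix and adhesion genes 131 of 625 regions (20.96%) were in HP109 alone and 95 (15.2%) in mi8 alone, and 61 of the 131 lay at Fn1. At equal length the shares were 13.7% and 12.5%, 45 and 41 of 328. Without Fn1 the balance turned, with 70 in HP109 alone and 95 in mi8 alone. Mmp12, a macrophage elastase gene, had 15 in HP109 alone and 2 in mi8 alone. Cd44, the receptor for hyaluronan, had 10 and 36, Lgals3, which encodes galectin-3, 2 and 13, and Plaur, the urokinase receptor gene, 2 and 10.

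Genes of dendritic cell function went in different directions. Itgax, which encodes CD11c, one of the markers on which all cells were sorted, had 10 regions in HP109 alone and none in mi8 alone. The strongest of these peaks (chr7:128132809-128133345, −log10 q 12.7) was also present in LMP8. The body of Itgax held 12 peaks in HP109, 8 in mi8, 10 in LMP8 and 4 in OE. Irf4, a lineage factor of dendritic cells, had 6 regions in HP109 alone and 1 in mi8 alone, and Zbtb46, a transcription factor of the conventional lineage, 4 and none. In contrast the costimulatory gene Cd86 had 4 in HP109 alone and 12 in mi8 alone, Cd74, the invariant chain of MHC class II, 1 and 9, Ccr7 1 and 5, and Ikzf1, a lymphoid and dendritic lineage factor, 4 and 12. The mi8 peaks near Ccr7 that were absent from HP109 were also absent from LMP8 and OE. Legumain (Lgmn), a lysosomal protease, had 8 in HP109 alone and 4 in mi8 alone. Tnip3 and Nfkb1, an inhibitor and a subunit of NF-kB signalling, had 7 and 5 and 4 and 7, and the receptor gene Notch2 7 and 8. Summed over lists these differences were small with all peaks. Antigen presentation had 29 (11.3%) in HP109 alone and 32 (12.5%) in mi8 alone of 257 regions, and without Cd74 28 and 23 of 229. Costimulation and maturation had 26 (10.5%) and 34 (13.8%) of 247, and without Cd86 22 each of 199. NF-kB and Toll-like receptor signalling had 38 (10.1%) and 48 (12.7%) of 378, and dendritic cell lineage factors 48 (10.2%) and 64 (13.6%) of 469. At equal length NF-kB and Toll-like receptor signalling had 14 (5.65%) and 31 (12.5%) of 248. Dendritic cell lineage factors then had 15 (4.84%) and 30 (9.68%) of 310, beside 10.5% and 11.1% near all genes. In that setting antigen presentation had 19 and 21 of 176, and costimulation and maturation 11 and 16 of 166.

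Cytokine and chemokine genes had fewer regions in HP109 alone than genes in general, 18 of 240 (7.5%, interval 4.51 to 11.6), and 35 (14.6%, interval 10.4 to 19.7) in mi8 alone. Il12b, a subunit of interleukin 12 and 23, and the monocyte chemokine gene Ccl2 each had 4 in mi8 alone and none in HP109 alone, and Cxcl10, an interferon-induced chemokine, had 3 and none. Il15 went the other way with 4 in HP109 alone and none in mi8 alone. Ccl5, a chemokine for T cells, had an end peak in mi8 (−log10 q 11.3) and in no other list. Glycolysis and HIF genes had 43 (10.3%) and 59 (14.1%) of 417, with Pfkp, a phosphofructokinase, at 12 and 6, Egln3, a HIF prolyl hydroxylase, at 1 and 6, Hif1a at 4 and 4, and 15 peaks inside the gene in HP109, 14 in mi8, 11 in LMP8 and 30 in OE. Cell cycle genes had 39 (12.3%) and 30 (9.43%) of 318, and the reverse order at equal length, 15 and 27 of 216, and with a −log10 q of 10 or more, 14 and 23 of 206. With all peaks they were led by Rb1, which restrains the cell cycle, with 9 and 2, and Cdk6, a kinase of its entry, with 6 and 14.

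**Figure D2:**
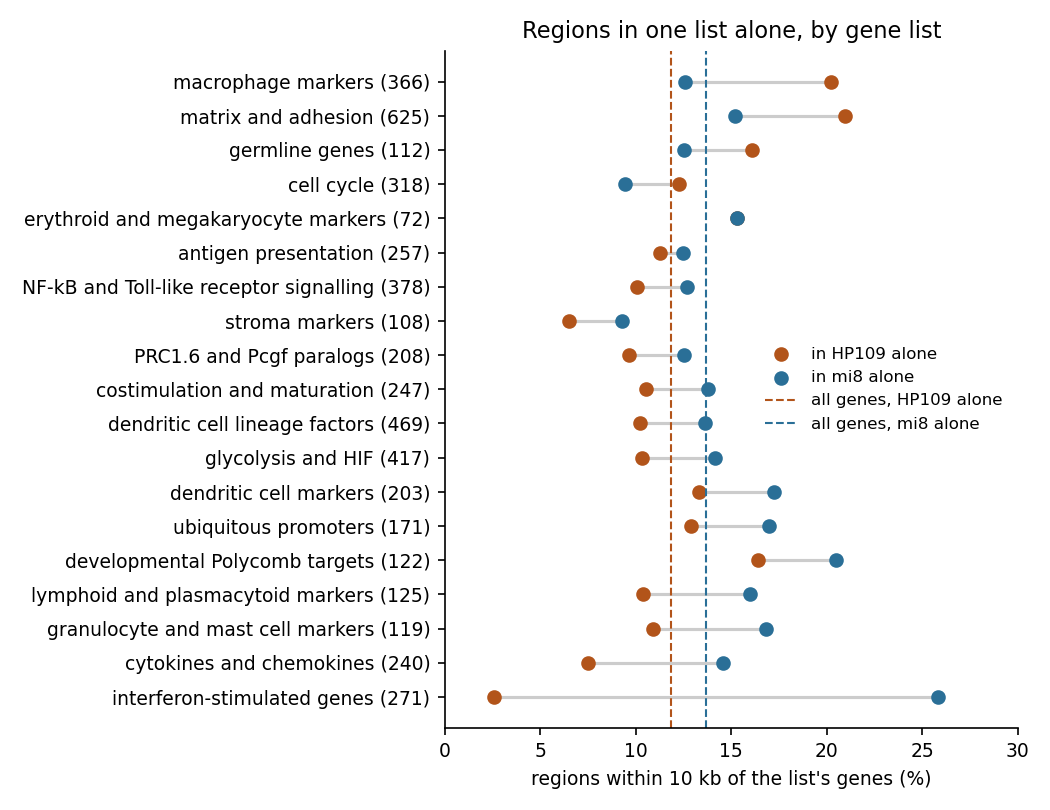
Share of the regions within 10 kb of each list's genes that were in HP109 alone (orange) or in mi8 alone (blue), in percent, with the number of regions in brackets and the shares near all protein-coding genes as dashed lines. Interferon-stimulated genes stand at 2.58% and 25.8%, and 14 of the 19 lists have more regions in mi8 alone.

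Of the marker lists for other cell types named next, 3 had more regions in mi8 alone and 1 had as many in each. Granulocyte and mast cell markers had 13 (10.9%) in HP109 alone and 20 (16.8%) in mi8 alone of 119 regions, lymphoid and plasmacytoid markers 13 (10.4%) and 20 (16%) of 125, erythroid and megakaryocyte markers 11 and 11 (15.3%) of 72 (6 and 4 of 40 at equal length), and stroma markers 7 (6.48%) and 10 (9.26%) of 108. At equal length granulocyte and mast cell markers had 7 (8.86%) and 17 (21.5%) of 79, and lymphoid and plasmacytoid markers 7 and 11 of 74. Stroma markers then had 4 (5.19%) and 14 (18.2%) of 77, beside 10.5% and 11.1% near all genes. Between HP109 and LMP8 at that length, granulocyte and mast cell markers had 11 (13.6%) and 18 (22.2%) of 81. With all peaks, ubiquitously open promoters had 22 (12.9%) in HP109 alone and 29 (17.0%) in mi8 alone of 171, led by Ywhaz, a 14-3-3 protein, with 7 and 10. Among marker genes, Mpo, the myeloperoxidase of granulocytes, had 4 and 1, the stem cell factor receptor gene Kit none and 4, the T cell factor gene Gata3 1 and 7, Cd3e 2 and none, the blood lineage factor gene Tal1 4 and 3, the platelet chemokine gene Ppbp 1 and 3, and Acta2, a smooth muscle actin, 2 and 1. Elane, Cd79b (4.77), Cd3g (3.78) and Hba-a1 (3.07), genes of neutrophils, B cells, T cells and red cells, had an end peak in HP109 alone, each with a low −log10 q. Nkg7 (8.86), of cytotoxic lymphocytes, and Cdh5 (2.64), of endothelium, were open at an end in mi8 and not in HP109. The part of such cells in the differences was not tested.

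Over all genes, 256 of 21631 were open at a gene end in HP109 and lacked any such peak in mi8 (1.18%), and 352 were in the reverse state (1.63%). The 393 genes on the lists were near this background, with 6 (1.53%) and 7 (1.78%), the 6 including Hoxc10 (6.63), a homeobox gene, and the 7 including the homeobox genes Pax3 (4.92) and Dlx5 (1.96). Of the 256, 47 also had an end peak in LMP8 and 21 in OE, and 199 in neither. Of the 352, 95 had one in LMP8 and 31 in OE, and 237 in neither. Thus 209 genes were open at an end in HP109 and in neither control vector, and 95 in both control vectors and not in HP109. Most of these peaks were weak, with a median −log10 q of 4.80 in HP109 and 4.68 in mi8. Only 11 of the 256 and 33 of the 352 reached 10.

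The strongest end peaks in HP109 alone mixed macrophage genes with genes of other tissues. Cd5l (chr3:87357713-87357959) had a −log10 q of 13.8 and a pileup of 22 over a background of 2.09, and Retnla (chr16:48842350-48842538) had 11.9 and a pileup of 18 over 1.56. Both peaks lay on the promoters printed above, and neither had a counterpart in LMP8 or OE. The olfactory receptor gene Olfr640 had 15.2, with end peaks also in LMP8 (2.29) and OE (5.06). Calb1, a calcium-binding protein of neurons and kidney, had 14.7, Gm11639 12.7, Jade1, a scaffold of a histone acetyltransferase, 11.9, the sperm gene Iqcf1 11.8, and Chml and the retinal arrestin gene Sag 10.8 each. Atad1, a mitochondrial ATPase, had 11.9 in HP109 and 13.9 in OE.

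Immune genes led the reverse list. After Ifi44 came H2-Q10, a nonclassical MHC class I gene, with 19.3 in mi8 and 10.3 in LMP8 (chr17:35469087-35469276), and Gbp10, an interferon-induced guanylate-binding protein, with 17.7 and no peak in LMP8 or OE (chr5:105239856-105240013). They were followed by Map3k21, a kinase (14.4), Veph1 (14.4), Rgs8, a regulator of G protein signalling (13.5), Creb3l4 (13.3), Sostdc1, an inhibitor of BMP and Wnt signalling (13.3), Sspn, which encodes sarcospan (12.8), and the prostaglandin D synthase gene Ptgds (12.3). Of these 7, Map3k21, Creb3l4 and Ptgds also had an end peak in LMP8, and Rgs8 and Ptgds in OE.

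The largest difference at any gene body was at Fn1, which encodes the matrix protein fibronectin. Its span (chr1:71585473-71653280) held 56 peaks in HP109, 3 in mi8, 3 in LMP8 and 1 in OE. Of the 56, 53 were exclusive against mi8, 1 of these was in LMP8 and none in OE. The exclusive peaks were narrow and mostly weak, with a median width of 176 bp, a median −log10 q of 5.04 and a range of 1.74 to 20.2, and 5 of them reached 10. The gene tables used here hold no exon positions, so it was not tested whether peaks inside Fn1, or inside Sarnp and Atp2c2, sit on exons. The Fn1 peaks did not stop at the gene. Joined across gaps of up to 5 kb, a ranking chosen after the data were seen, 41 exclusive peaks formed a run of 44.5 kb from the neighbouring gene Atic into Fn1 (chr1:71558121-71602635). HP109 peaks covered 39.7% of that run, mi8 peaks 1.78%, LMP8 peaks 2.15% and OE peaks 1.25%. Inside the run lay the second strongest HP109 peak absent from mi8, 1379 bp wide (chr1:71578649-71580027), with a −log10 q of 28.0, a pileup of 30 over 1.35 and no counterpart in LMP8 or OE.

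Other stretches of many small HP109 peaks lay elsewhere. At Atp2c2, a calcium pump of the secretory pathway, and its neighbour Meak7, a run of 43.9 kb held 51 peaks in HP109, 11 in mi8, 17 in LMP8 and 5 in OE. Within Cdh23, a cadherin, a run of 22.6 kb held 31, 4, 13 and 5, and HP109 peaks covered 64.6% of it. Sarnp, an RNA-binding protein gene, had 34 peaks in its body in HP109, 8 in mi8, 7 in LMP8 and 1 in OE. Plxdc2, a transmembrane receptor, had 110, 67, 59 and 37, Cd36 79, 65, 61 and 40, Tbxas1, the thromboxane synthase, 92, 88, 76 and 44, and Esr1, the estrogen receptor, 46, 28, 22 and 33. Of the 21 HP109 peaks inside Esr1 that were absent from mi8, 10 were in OE and none in LMP8. Their median fold over background was 2.46, against 4.29 for such peaks inside Plxdc2. The lectin receptor genes Clec4d and Clec4e lay in a run with 36 peaks in HP109, 20 in mi8, 16 in LMP8 and 30 in OE, so there OE resembled HP109 in number.

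In mi8 the longest such stretch was at Atp2b1, a plasma membrane calcium pump. Its span (chr10:98914630-99026143) held 67 peaks in HP109, 104 in mi8, 66 in LMP8 and 21 in OE, and 50 of the 104 were absent from HP109. A run of 47.2 kb over its right end (chr10:98996598-99043762) held 17, 56, 20 and 1. Of the 50, none reached a −log10 q of 10, 10 were in LMP8 and none in OE. Zeb2, a transcription factor of myeloid and dendritic lineages, had 101 peaks in HP109, 115 in mi8, 71 in LMP8 and 63 in OE. Of these, 35 were in mi8 alone and 17 in HP109 alone. Osbpl8, a lipid transfer protein, had 33 in mi8 alone and 19 in HP109 alone, Cd44 32 and 10, and the phosphodiesterase gene Pde4b 25 and 3. Ifi207, a PYHIN gene, differed from them. A run of 22.7 kb there held 6 peaks in HP109, 20 in mi8, 22 in LMP8 and 4 in OE, and 10 of the 15 exclusive peaks were in LMP8. The large phosphodiesterase gene Pde4d had 24 peaks exclusive to each list, of 156 in HP109 and 158 in mi8. The transcription factor gene Foxp1 had 24 of 118 mi8 peaks in mi8 alone (20.3%), and 15 in HP109 alone. Lpp, a protein of cell contacts, had 23 of 133 mi8 peaks in mi8 alone (17.3%), and 17 in HP109 alone. Over all mi8 peaks 15.8% were exclusive, so Pde4d (15.2%) and Lpp were near that share. Runs of 10 or more exclusive peaks numbered 23 in HP109 and 15 in mi8, and runs of 5 or more 104 and 105.

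**Figure D3:**
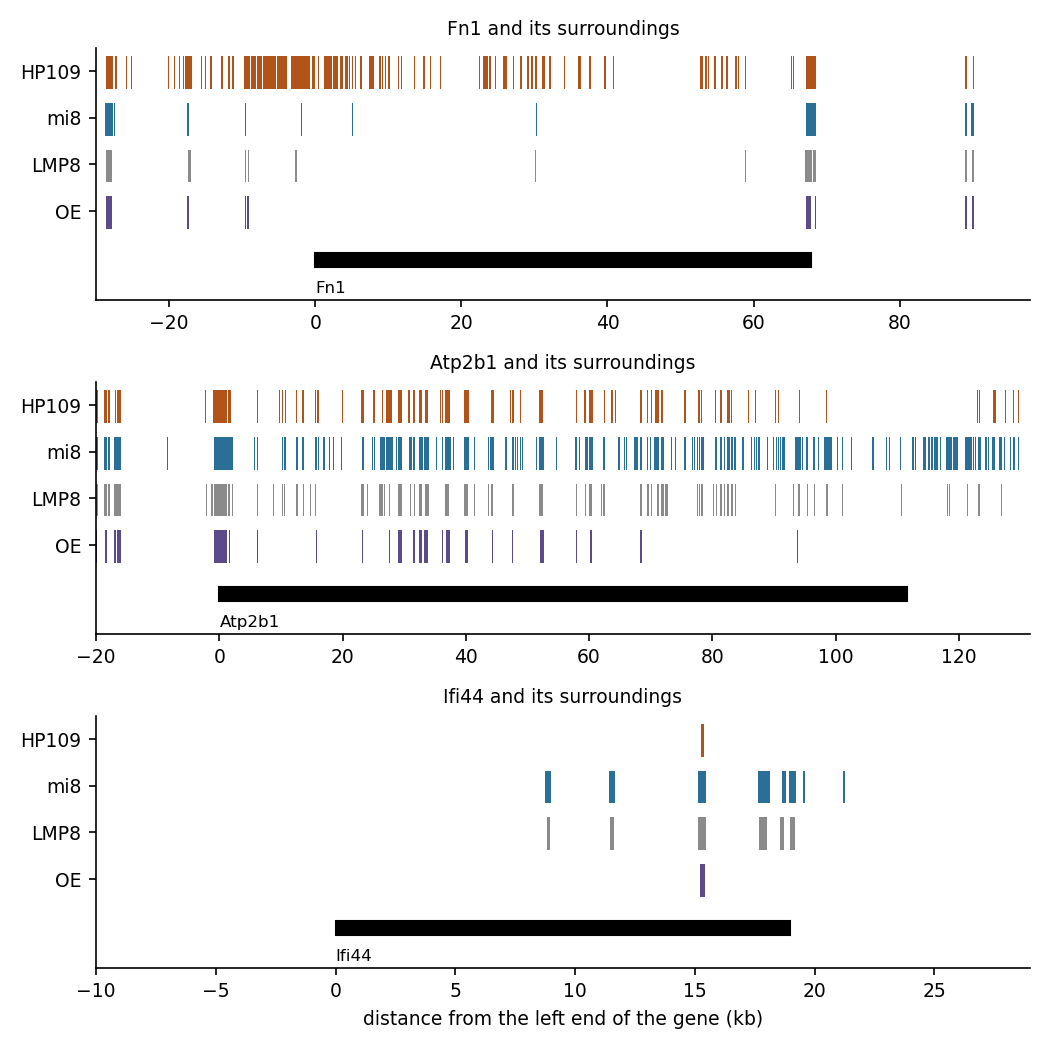
Peaks of the 4 lists (rows; each mark is 1 peak, drawn to width with a minimum so that it stays visible) at Fn1, Atp2b1 and Ifi44, by distance in kb from the left end of the gene, with the gene span as a black bar. At Fn1 the HP109 row holds 56 peaks inside the gene against 3 in mi8; at Ifi44 mi8 and LMP8 hold 6 each and HP109 and OE 1 each.

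Single strong peaks were rarely exclusive. Among HP109 peaks of −log10 q below 5, mi8 lacked 44.3%. The share was 22.4% from 5 to 10, 3.77% from 10 to 20 and 0.153% (46 peaks) from 20 to 40, and no peak above 40 was absent. For mi8 the shares were 52.8%, 26.0%, 4.69% and 0.147% (44 peaks), again with none above 40. The median −log10 q was 4.77 for exclusive and 17.7 for shared HP109 peaks, and 4.68 and 18.8 in mi8. Exclusive peaks were also narrower, with a median of 121 bp against 242 bp in HP109 and 131 bp against 268 bp in mi8. Over all peaks, 12.9% of HP109 (interval 12.8 to 13.1) and 15.8% of mi8 (interval 15.6 to 15.98) were exclusive. The mi8 share was the higher on 20 of 20 chromosomes, which all share the depth of their list. With a −log10 q of 5 or more in every list the shares were closer, 12.9% (18514 peaks) in HP109 and 13.4% (18972) in mi8.

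**Figure D4:**
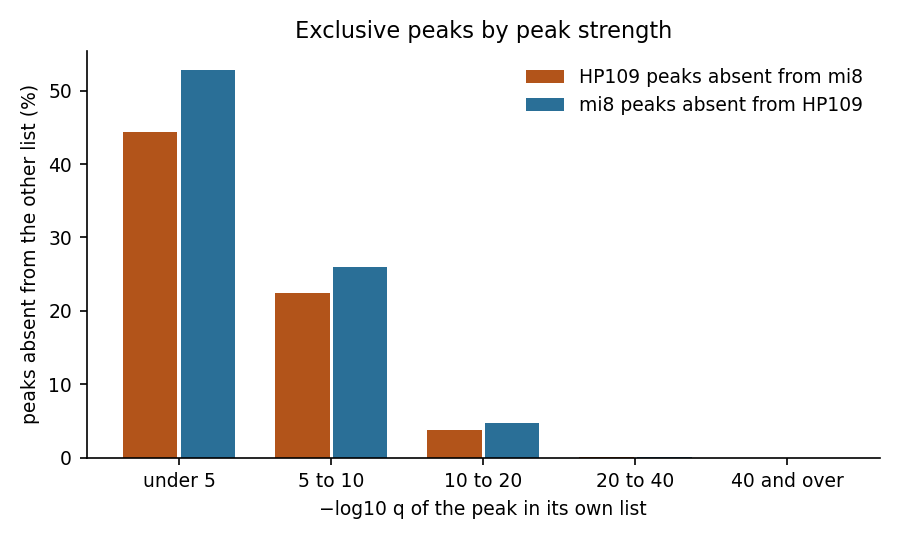
Percent of the peaks of each list that overlap no peak of the other, by −log10 q of the peak in its own list, for HP109 (orange) and mi8 (blue). The share falls from 44.3% and 52.8% under 5 to 0.153% and 0.147% from 20 to 40, and no peak of 40 or over is exclusive.

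The strongest single exclusive intervals lay in or near genes of varied function. In HP109 alone they included peaks inside Cdc7, a replication kinase (chr5:106967681-106967924, −log10 q 28.7), Cdh23 (27.0), Trappc8 (27.4), the chromatin protein gene Smchd1 (25.3) and the protein kinase C gene Prkce (25.3). LMP8 also had a peak at all 5 of these places, and OE at all but Cdc7. Of the remaining strong ones, 1 on chromosome 16 (27.4) and 1 on chromosome 17 (25.9) were over 100 kb from any gene, and the latter sat on a local background of 47.4 reads. In mi8 alone, after Ifi44, they were a peak 29.95 kb from Prdx6, a peroxiredoxin (33.0), and peaks in Bri3bp (31.3), Lrrc6 (30.8), Grb10, a growth receptor adaptor (29.5), and Samd12 (27.2) and next to Fam162b (28.3), with 1 on chromosome 14 far from any gene (32.1). Of the 46 HP109 peaks from 20 to 40, LMP8 had 22 and OE 27, and 14 were in neither. Of the 44 mi8 peaks, LMP8 had 38 and OE 23, and 1 was in neither.

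With all peaks, most exclusive peaks were in neither LMP8 nor OE. Of the HP109 peaks absent from mi8, 16.6% (interval 16.1 to 17.1) were in LMP8, 11.1% in OE and 75.1% in neither. Of the mi8 peaks absent from HP109, 22.8% (interval 22.3 to 23.3) were in LMP8, 9.15% in OE and 71.3% in neither. Shared peaks were in LMP8 in 84.9% of cases for HP109 and 85.0% for mi8. At equal length the shares differed, with 45.6% of mi8-only peaks in LMP8, and the share of HP109-only peaks absent from LMP8 went from 83.4% to 63.4%. With all peaks 18351 HP109 peaks were absent from both control lists, and 6150 mi8 peaks were present in LMP8 and absent from HP109.

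**Figure D5:**
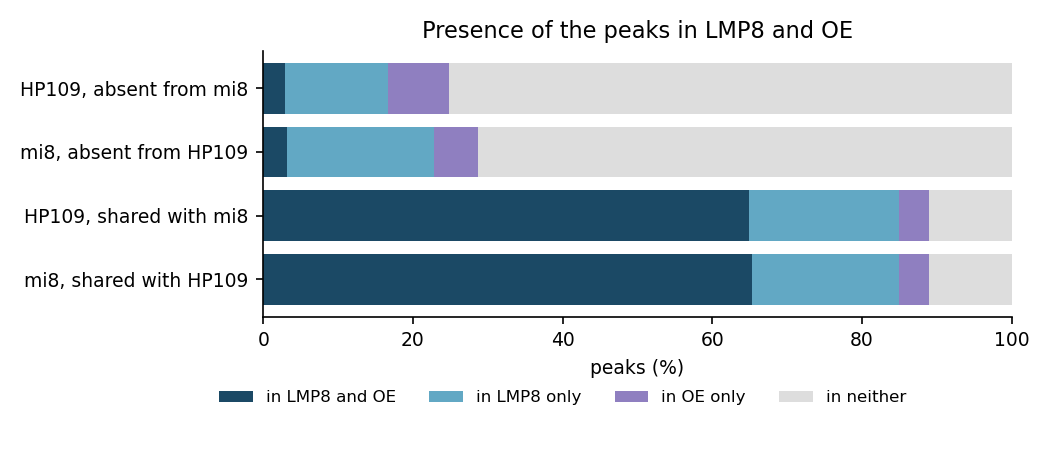
Presence in LMP8 and OE of HP109 and mi8 peaks, for those exclusive to their list and those shared between both, as percent of peaks. Of exclusive peaks, 75.1% in HP109 and 71.3% in mi8 are in neither list, against 11.1% and 11.0% of shared peaks.

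By overlap of covered bases HP109 lay near both mi8 and its own control. At the equal length of 111488 peaks the Jaccard index, shared over covered base pairs, was 0.727 for HP109 and mi8, 0.719 for HP109 and LMP8, and 0.723 for mi8 and LMP8. With OE it was 0.654 for HP109, 0.641 for LMP8 and 0.624 for mi8. Each of the 3 indices with OE was lower than each of the 3 without it.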

How the data were processed

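The submitters' processing notes name BWA, Picard, MACS2 and build mm10 without giving roles. The sources used here give no versions, thresholds or read shifting, and do not say how the 2 libraries of a vector were pooled. The list names refer to 1 input library made with mi8 and carry the word downsample, per the labels. As deposited, the score is a whole number, 10 times the −log10 q. The deposited fold compares the summit pileup with the local background as a ratio. The deposited −log10 p and −log10 q express how unlikely the summit is under that background. The −log10 q was used within a list, apart from the count of higher end values at interferon-stimulated genes.

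From these files, peaks on chromosomes 1 to 19 and X counted as shared when they overlapped by 1 bp or more (no interval was repeated). Whole-number pileups were solved from fold and −log10 p, read as a Poisson tail, within 0.001 for 100% of peaks. Spans of 21631 protein-coding genes on these chromosomes came from a RefSeq table of GRCm38.p6, the assembly behind mm10, which holds neither strand nor exons. A gene end was taken with 1000 bp on each side, and a gene list with 10 kb around each span. Of 408 gene list entries 407 were found (not Cxcl11), naming 393 different genes; 1 of the interferon-stimulated genes is counted in its list and is not reported here by itself.

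The comparison, the 19 lists and the naming rule were chosen with earlier results of these data known. Genes were named by that rule as the 10 strongest exclusive gene ends, 8 strongest intervals and 8 gene bodies with most exclusive peaks per list, list genes open at an end in 1 list only, the leading gene of each list, Pcgf6, Fn1, Hif1a and Plxdc2. Other named genes, the motifs and the runs were chosen after their values were seen. Overlap counts and pileup recovery were tested on simulated data. Python 3.11.15 with numpy, pandas 2.3.3 and scipy was used. Alternatives were stricter overlap, higher −log10 q, equal list length, other windows, start sites, and lists without their leading gene.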

Additional observations from a re-analysis of the deposited data

How the results depend on the processing

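Counts of exclusive peaks changed by under 1.5 times when 50% of a peak had to be covered, when every list was limited to a −log10 q of 5 or more, and when no peak was allowed within 500 bp, except that mi8-only peaks present in LMP8 fell from 6150 to 3786 with the limit of 5. With a limit of 10 in every list, 11348 HP109 and 13838 mi8 peaks were exclusive, 10285 of the former were absent from LMP8 and 1970 of the latter present in it. At equal length 12746 and 14678 were exclusive, 8083 HP109 peaks were absent from both controls, and 6693 of the mi8-only peaks (45.6%) were in LMP8. Exclusive peaks of 10 or more, against all peaks of the other list, numbered 1344 and 1740. These settings use fewer peaks. In each of them more mi8 than HP109 peaks were exclusive.

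Genes open at an end in HP109 alone numbered 224 to 284 across windows of 500 and 2500 bp, a −log10 q limit of 5 and equal length, and those in mi8 alone 340 to 380. With exclusive peaks of 10 or more they were 11 and 34, the latter 1 above the 33 counted among the 352 genes because weaker mi8 peaks are dropped before the rule is applied, and at start sites only, chosen after the data were seen, 145 and 253.

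The net share near interferon-stimulated genes, HP109 alone minus mi8 alone, was -23.2 percentage points, and between -24.9 and -17.9 at equal length, with a −log10 q of 10 or more, and without Dhx58 or Ifi44. The net share of matrix and adhesion genes was 5.76 points and turned to -4.47 without Fn1. Net shares turned at equal length and with a −log10 q of 10 or more for 3 lists, settings added after the data were seen: PRC1.6 and Pcgf paralogs (2.17 and 3.79 points), developmental Polycomb targets (14 and 19.6) and cell cycle genes (-5.56 and -4.37). That of antigen presentation turned to 2.18 without Cd74. That of macrophage markers was 7.65 points and 3.27 without Cd36. No paired analysis was possible because each vector has 1 list for both of its libraries. Depth, 1.38 times higher in mi8, and the lack of replicate lists limit every count given here.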
